A study of Mus musculus with 24 samples.

Results

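TRAJ53 is a joining segment of the T cell receptor α locus, and it is described here in TCRα (TRA) and TCRβ (TRB) libraries made from whole CT26.CL25 tumors. Its members were the listed receptor sequences with TRAJ53 as J segment and at least 2 counts. There were 3724 such sequences among 88151 in the TRA libraries, of which 2423 among 55689 carried no stop codon mark, and 88 among 104300 in the TRB libraries. TRAJ53 was chosen by its counts in TRB libraries, where it had most of the counts of any TRAJ segment, so its presence there is a description with no test. Just inside the threshold, 692 unmarked TRA sequences and 32 TRB sequences had exactly 2 counts, and just outside it, 7319 and 209 had a single count.

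The libraries came from 24 tumors of 12 female BALB/c mice aged 7 to 9 weeks, which carried a CT26.CL25 colon carcinoma in each flank. In the time-matched group (mice 6, 12 and 14) both tumors were taken on day 13 without treatment. In the time-separated group (mice 4, 17 and 19), also untreated, 1 tumor was removed by surgery and the other was taken 11 days later. The low-dose DAC group (mice 3, 11 and 20) and the high-dose DAC group (mice 7, 10 and 16) had the same surgery and received decitabine at 0.5 or 2 mg/kg for 5 days from 3 days after it, with harvest 4 days after the last dose. In the DAC groups the tumor removed at surgery was taken before dosing, so a value averaged per mouse joins an undosed and a dosed tumor. Tumors are numbered 1 and 2 within each mouse by the labels, without side or time, so tumor 1 cannot be read as the early tumor. The RNA came from whole tumors, in which more cells of a clone and more receptor RNA per cell cannot be told apart.

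An α chain is built when a TRAV segment is joined directly to a TRAJ segment, with bases trimmed and added at the junction, and is then spliced to the constant segment TRAC. A β chain joins TRBV, TRBD and TRBJ segments and is spliced to a TRBC segment, so a TRAJ segment has no place in it. The CDR3 is the stretch over the junction that contacts the peptide, and in an α chain the J segment supplies its end. In the RefSeq annotation (GRCm38.p6) Traj53 lies in the 5′ part of the joining cluster, between the pseudogene Traj54 and Traj52. The genome build behind the deposited segment names is not given in the sources used here.

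The letters that mark a TRAJ53 sequence were read from the TRA libraries. The line below joins the most frequent base at each of the last 32 positions of the distinct CDR3 sequences to the 31 bases usually listed after the CDR3, and its capital marks the last listed base, which is the base that differed between the libraries.
TRAJ53 letters in TRA libraries: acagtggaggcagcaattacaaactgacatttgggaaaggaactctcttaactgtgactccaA
The largest TRAJ53 sequence of mouse 16, tumor 1, was listed in both libraries of that tumor, and it is shown from each with the CDR3 in capitals, because the CDR3 letters of the pair are the same.
TRA library, mouse 16: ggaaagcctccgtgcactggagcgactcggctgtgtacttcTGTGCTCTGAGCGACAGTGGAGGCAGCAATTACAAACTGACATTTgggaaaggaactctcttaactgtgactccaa
TRB library, mouse 16: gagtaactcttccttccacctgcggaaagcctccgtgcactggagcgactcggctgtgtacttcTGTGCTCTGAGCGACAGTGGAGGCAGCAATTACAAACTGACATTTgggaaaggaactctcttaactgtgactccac
The largest TRAJ53 sequence of mouse 12, tumor 2, is shown in the same way because it carried 1 T more after the CDR3 than the usual form.
TRA library, mouse 12: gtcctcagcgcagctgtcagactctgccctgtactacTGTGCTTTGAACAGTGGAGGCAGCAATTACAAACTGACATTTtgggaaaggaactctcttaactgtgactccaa
TRB library, mouse 12: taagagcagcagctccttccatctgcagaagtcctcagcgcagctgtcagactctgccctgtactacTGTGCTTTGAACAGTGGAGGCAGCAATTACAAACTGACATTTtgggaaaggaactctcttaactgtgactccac
In both pairs the listed sequence began further upstream in the TRB library and ended with C in place of A.

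In the TRA libraries TRAJ53 was a frequent joining segment. Its coefficient of variation over mice was 1.07, the rank 24 of 43 segments, whose median was 1.15. Over the 24 tumors its mean share of unmarked TRA counts was 5.05%, the rank 6 among 45 TRAJ segments, and its mean share of clonotypes was 4.33%, the rank 4. A clonotype was a CDR3 amino acid sequence with its V and J segment. The share of counts had a median of 2.90% and ran from 0.117% in tumor 2 of mouse 10 (278 of 236622 counts, 95% Clopper-Pearson interval 0.104 to 0.132%) to 20.3% in tumor 2 of mouse 16 (27513 of 135215 counts, interval 20.1 to 20.6%). These intervals cover counting error only. TRAJ53 was the most used TRAJ segment in both tumors of mouse 16 and had the rank 35 in tumor 2 of mouse 10. The TRA libraries held 26623 to 846655 unmarked counts, of which 278 to 37221 were TRAJ53.

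The TRAJ53 share of TRA counts is given for each mouse as a pair of tumors. Among the time-matched mice, mouse 6 had 5.98% and 7.42% (tumor 1, then tumor 2), mouse 12 had 3.22% and 3.56%, while mouse 14 had 2.46% and 2.50%. Among the untreated time-separated mice, mouse 4 had 3.67% and 2.36%, mouse 17 had 3.12% and 1.91%, while mouse 19 had 5.46% and 1.69%. The ranges of both groups overlapped. Among the low-dose DAC mice, mouse 3 had 1.93% and 3.24%, mouse 11 had 1.99% and 2.69%, while mouse 20 had 2.14% and 0.487%. Among the high-dose DAC mice, mouse 7 had 9.92% and 16.3%, mouse 10 had 1.56% and 0.117%, while mouse 16 had 17.2% and 20.3%. The high-dose group held the 4 highest and the lowest tumors of the series.

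**Figure D1:**
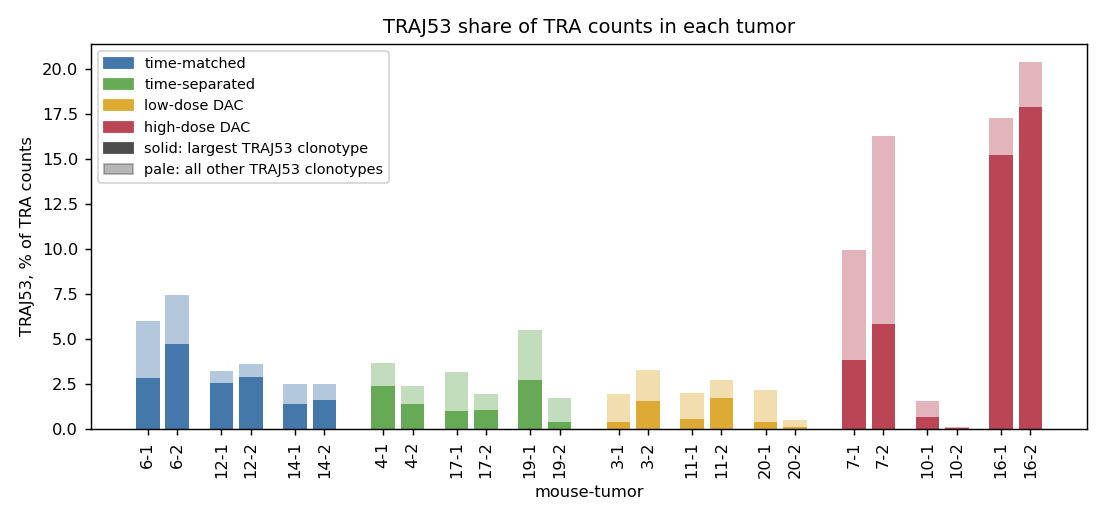
Share of TRA counts with TRAJ53 (y axis, %) in each tumor (x axis, mouse and tumor number), colored by group, with the largest TRAJ53 clonotype of the tumor solid and all other TRAJ53 clonotypes pale. The 4 tumors of mice 7 and 16 lie between 9.92% and 20.3%, and in mouse 16 the largest clonotype takes 88.1% and 87.9% of the bars.

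Averaged per mouse, the TRAJ53 share was 4.19% ± 2.22 (SD, n = 3) in time-matched, 3.03% ± 0.530 in time-separated, 2.08% ± 0.675 in low-dose DAC and 10.9% ± 9.17 in high-dose DAC mice. The time-matched group was 1.16 percentage points above the time-separated group (exact permutation test, two-sided, n = 3 per group, p = 0.7, adjusted p = 0.971; the smallest p that 3 against 3 allows is 0.1). Against all 9 time-separated mice it differed by -1.15 points (p = 0.9, adjusted p = 0.991, from the two-sided exact permutation test). Among the 3 time-separated groups the means spanned 8.83 points (exact permutation test on the squared spread of the group means, p = 0.221, adjusted p = 0.845). None of these differences passed its test. Of the 43 TRAJ segments tested in each comparison 0.0% passed at an adjusted p under 0.05, and 0.0% at an unadjusted p under 0.05. For 3 against 3 mice both results were fixed in advance. In the other comparisons a lone segment could not pass after adjustment, so the adjusted result says nothing of a lack of difference. The first difference turned to -0.0979 without mouse 6 and to -0.0142 without the largest TRAJ53 clonotype of each mouse, and the second turned to 0.532 without mouse 16. Without mouse 10 the last comparison gave 13.9 points (exact permutation test, p = 0.00714, adjusted p = 0.307), without mouse 16 it gave 4.88 points and without mouse 7 it gave 7.73 points. Without the largest TRAJ53 clonotype of each mouse it gave 2.80 points (exact permutation test, p = 0.454).

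The share of TRAJ53 among clonotypes, which counts each clonotype once, was 4.23% ± 0.902 (SD, n = 3) in time-matched mice and 4.36% ± 3.21 (n = 9) in all time-separated mice, and these means differed by -0.130 points (p = 0.986, adjusted p = 0.986, from the two-sided exact permutation test). By this measure 0.0% of 43 segments passed the adjusted and 2.33% the unadjusted threshold. The lowest tumor was tumor 2 of mouse 10 with 0.973%, or 18 of 1849 clonotypes, and the highest was tumor 2 of mouse 7 with 13.6%, or 70 of 515 clonotypes. TRAJ53 ranked first by clonotypes in both tumors of mouse 7 (220 and 70 clonotypes) and of mouse 16 (141 and 105).

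Between the tumors of a mouse, the TRAJ53 share was higher in tumor 2 in 7 of 12 mice and lower in 5. The mean difference was 0.325 ± 2.61 percentage points (SD, n = 12; sign-flip permutation test, exact, two-sided, p = 0.690, adjusted p = 0.959). Of 43 segments, 4.65% passed this test after adjustment and 23.3% before it. Among the 5 neighboring functional segments, 1 passed, which was TRAJ52. Its share fell by 0.753 ± 0.595 points and was lower in tumor 2 in 12 of 12 mice (sign-flip permutation test, exact, adjusted p = 0.0210), from a mean of 2.10% to 1.34%. TRAJ50, TRAJ56, TRAJ57 and TRAJ58 had adjusted p values of 0.367, 0.965, 0.0560 and 0.933. The segments with the highest rank correlation with TRAJ53 over the 24 tumors were TRAJ52 (Spearman's rho 0.43), TRAJ35 (0.32) and TRAJ50 (0.31), and the lowest were TRAJ22 (-0.48), TRAJ21 (-0.46) and TRAJ5 (-0.45), which is a description because the tumors of a mouse are not independent and all shares of a library sum to a fixed total.

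A large part of the TRAJ53 counts of a tumor lay in 1 clonotype. It held from 12.9% of TRAJ53 counts in tumor 2 of mouse 10 to 88.1% in tumor 1 of mouse 16, with a median of 48.6%. Without it, the share of TRAJ53 had a median of 1.40% over the tumors and reached 11.1% in tumor 2 of mouse 7. The nucleotide CDR3 of the largest clonotypes is given for 7 mice that cover the 4 groups. Bases that match the shared TRAJ53 end are in capitals, because they show how far each CDR3 matched it. The shared end was read from these libraries, so the capitals do not fix the border between V segment, added bases and TRAJ53.
Mouse 6, with TRAV17: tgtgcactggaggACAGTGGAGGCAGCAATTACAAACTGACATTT
Mouse 12, with TRAV12-2: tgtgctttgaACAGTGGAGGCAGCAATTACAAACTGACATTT
Mouse 4, with TRAV10: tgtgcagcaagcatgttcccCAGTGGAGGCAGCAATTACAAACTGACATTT
Mouse 3, with TRAV4-3: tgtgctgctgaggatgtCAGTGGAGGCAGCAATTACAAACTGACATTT
Mouse 19, with TRAV3-1: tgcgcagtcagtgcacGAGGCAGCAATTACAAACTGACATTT
Mouse 7, with TRAV14-1: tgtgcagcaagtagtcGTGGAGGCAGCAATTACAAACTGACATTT
Mouse 16, with TRAV9D-4: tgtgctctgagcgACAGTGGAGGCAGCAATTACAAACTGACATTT
The clones of mice 6, 12 and 16 matched all 32 bases, and that of mouse 19 matched 26.

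The clone of mouse 16 was the largest TRA clonotype of both its tumors, at 15.2% (95% Clopper-Pearson interval 15.0 to 15.3%) and 17.9% (17.7 to 18.1%) of TRA counts. The same CDR3 with TRAV9D-4 was also the largest TRAJ53 clonotype of the time-matched mouse 14, at 1.39% and 1.60%. The clone of mouse 6 held 2.81% and 4.73%, and that of mouse 12 held 2.54% and 2.86%. In all 3 time-matched mice the clone was higher in tumor 2. The counting intervals of the tumors did not overlap, but they cover counting error only, with 1 TRA library per tumor. The clone of mouse 19 ranked first in tumor 1 at 2.70% and was at 0.373% in tumor 2, and the clone of mouse 4 was at 2.35% and 1.34%. The clone of mouse 7 was at 3.81% and 4.42%. In mouse 10 the largest TRAJ53 clonotype, which used TRAV6-6, had 1374 counts in tumor 1 and 0 in tumor 2.

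In the low-dose DAC mice the largest TRAJ53 clonotypes used TRAV4-3 in mouse 3 (0.179% and 1.55% of TRA counts), TRAV6-6 in mouse 11 (0.337% and 1.72%) and TRAV4-3 in mouse 20 (0.346% and 0.0346%). The largest clonotype of mouse 17 used TRAV6-6, encoded the same CDR3 amino acids as that of mouse 11 and was at 0.969% and 1.05%, close in both tumors.

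TRAJ53 clonotypes found in both tumors of a mouse held 94.0% ± 3.54 (SD, n = 3) of the TRAJ53 counts in time-matched mice. They held 69.9% ± 14.4 in time-separated, 61.8% ± 12.8 in low-dose DAC and 66.1% ± 44.7 in high-dose DAC mice. The lowest time-matched mouse was at 90.7%, which mouse 16 of the high-dose group exceeded with 96.5%. In mouse 10 only 14.8% of TRAJ53 counts lay in shared clonotypes, against 83.2% of the counts of other TRAJ segments in the same mouse. The clonotypes of other TRAJ segments gave 91.8% ± 5.51, 65.5% ± 19.8, 76.6% ± 3.27 and 84.1% ± 1.60 for these groups in the same order. TRAJ53 was above the other segments in 7 of 12 mice, with a mean difference of -6.56 ± 22.0 points. The median difference was 0.437 points, and mouse 10 was the lowest at -68.4. These values describe the groups and were not tested.

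TRAJ53 was joined to many V segments, with 5 to 33 per tumor. Over all mice there were 1528 TRAJ53 clonotypes when those of both tumors of a mouse were united. The most frequent partners by clonotypes were TRAV6-6 (194), TRAV9D-4 (166), TRAV12-2 (138), TRAV14-1 (99) and TRAV17 (95). TRAV6-6 made up 12.6% ± 9.73 of TRAJ53 clonotypes per mouse (SD, n = 12), against 4.69% ± 1.31 of the clonotypes with other TRAJ segments, and it was higher with TRAJ53 in 9 of 12 mice. TRAV17 made up 5.74% ± 9.14 against 0.886% ± 0.324, and it was higher in 8 of 12 mice. Mice 6 (28.0%) and 14 (21.1%) carried this mean, which was 3.71% without mouse 6. TRAV9D-4 and TRAV14-1 were each higher with TRAJ53 in 6 of 12 mice and TRAV12-2 in 4, although the means of all 3 were above those of other TRAJ segments. The TRAV12-2 mean was 5.99%, and 2.72% without mouse 12, and the TRAV9D-4 mean was 10.5%, and 5.94% without mouse 16. These comparisons were not tested. TRAV7-4, in contrast, made up 2.24% ± 1.68 of TRAJ53 clonotypes and 8.42% ± 4.30 of the others, and it was lower with TRAJ53 in all 12 mice; it was named after its values were seen.

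By mean share of TRAJ53 counts the leading partners were TRAV9D-4 (15.7%), TRAV6-6 (14.4%), TRAV12-2 (10.1%), TRAV17 (8.03%) and TRAV4-3 (6.84%). The means were uneven over tumors. TRAV9D-4 reached 92.4% of TRAJ53 counts in tumor 1 of mouse 16 and had a median of 0.00543% over the tumors, and TRAV12-2 reached 90.2% in tumor 2 of mouse 12 with a median of 0.408%. TRAV6-6 had a median of 3.28% and reached 68.2% in tumor 2 of mouse 11. TRAV17 had a median of 0.275% and reached 66.9% in tumor 2 of mouse 6, and TRAV4-3 had a median of 1.60% and reached 49.6% in tumor 2 of mouse 3. Many clonotypes of these partners lay close to a large clone. A median of 28.2% of the distinct TRAJ53 sequences of a tumor differed by 1 base from its largest sequence, with 48.6% in tumor 2 of mouse 16. When sequences 1 base from a 20-fold larger one of the same V and J were left out, 848 TRAJ53 clonotypes were left, with 92 for TRAV6-6, 40 for TRAV9D-4, 53 for TRAV12-2, 49 for TRAV14-1 and 38 for TRAV17. The TRAJ53 share of clonotypes was then lower in 17 tumors and higher in 7. It went from 8.32% to 5.62% in tumor 1 of mouse 16 and from 3.28% to 5.63% in tumor 2 of mouse 19.

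**Figure D2:**
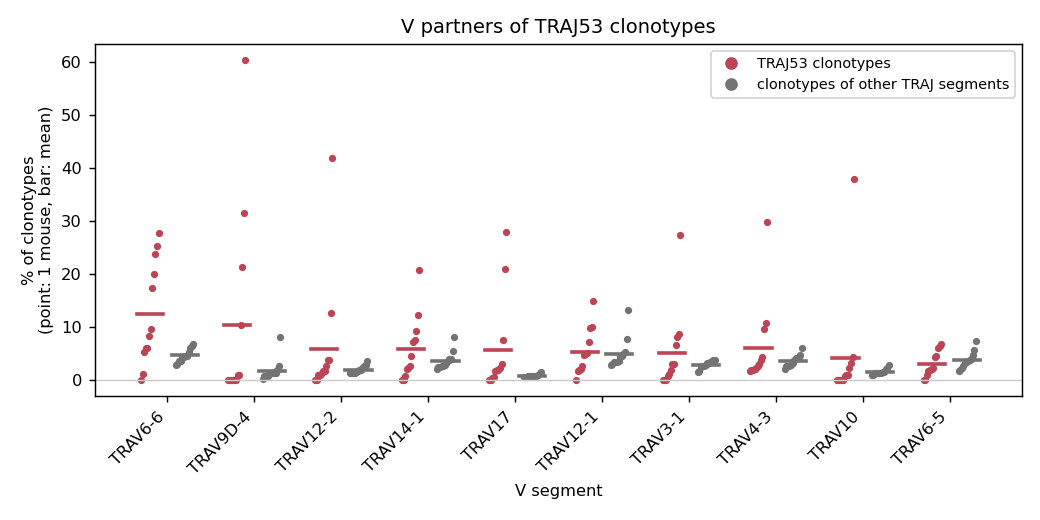
Share of clonotypes (y axis, %) that used each of the 10 V segments with most TRAJ53 clonotypes (x axis), among TRAJ53 clonotypes (red) and clonotypes of all other TRAJ segments (gray), with a point per mouse and a bar at the mean of 12 mice. The TRAJ53 shares rest on fewer clonotypes per mouse than the others, and their SD between mice is larger for each of the 10 segments, from 2.45 against 1.62 for TRAV6-5 to 18.8 against 2.06 for TRAV9D-4. TRAV6-6 has the highest mean with TRAJ53, 12.6%.

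Segments TRAV16 to TRAV21 were grouped because V segments with high numbers lie nearest to the joining cluster, although copies of TRAV16 named with D or N lie further away. They made up 13.5% ± 10.0 of TRAJ53 clonotypes (SD, n = 12 mice) and 8.94% ± 3.01 of the clonotypes with other TRAJ segments. The difference of 4.56 ± 11.3 points was above 0 in 7 of 12 mice (sign-flip permutation test, exact, two-sided, p = 0.195) and ran from -9.19 in mouse 16 to 24.5 in mouse 6. It did not exceed the spread between mice. The call turned under 3 settings of the same exact sign-flip permutation test, with 7.50 points for TRAV17 to TRAV21 (p = 0.0117), 7.86 points at a minimum of 10 counts (p = 0.00732) and 6.39 points without the 1-base neighbors of large sequences (p = 0.0151). Weighted by counts the difference was 4.25 points (exact sign-flip permutation test, p = 0.515). Over all mice, 13.1% of TRAJ53 clonotypes used these V segments, the rank 10 of 43 TRAJ segments, below the neighboring TRAJ58, TRAJ56 (23.2%), TRAJ50 (20.0%) and TRAJ57 (19.3%) and above TRAJ52 (10.5%).

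The length of the match to the TRAJ53 letters varied between CDR3s. Among 1572 distinct CDR3 nucleotide sequences, a median of 27 of the 32 bases matched without a break from the CDR3 end, and the quartiles were 14 and 31. At least 30 bases matched in 36.1% of them. A base that differs near the end stops this match early, so short matches need not be deep trimming. Of the 1528 clonotypes, 42.5% kept the last 10 amino acids that the 32 bases encode, 62.2% the last 9 and 70.8% the last 8. TRAJ53 clonotypes had a median CDR3 length of 15 amino acids (mean 14.8) against 14 (mean 13.6) for those of other TRAJ segments.

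**Figure D3:**
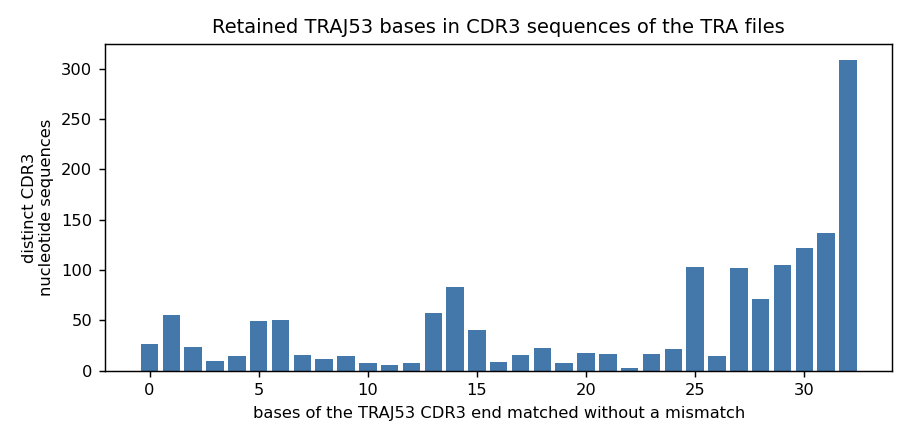
Number of distinct TRAJ53 CDR3 nucleotide sequences in TRA libraries (y axis) by the number of bases at the CDR3 end that matched the shared TRAJ53 letters without a mismatch (x axis). Most sequences matched over 24 or more bases, and the tallest bar is at all 32.

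Most TRAJ53 CDR3s occurred in 1 mouse only. Of 1125 distinct CDR3 amino acid sequences, 965 (85.8%) occurred in 1 mouse, 98 in 2, 31 in 3 and 31 in 4 or more. The share in 4 or more mice was 2.76%, the rank 10 of 43 segments, with a median over segments of 1.77%. The most frequent nucleotide form of 5 CDR3s found in most mice (the last of them tied with 2 others at 7 mice) is given with the matching TRAJ53 bases in capitals. It shows how much of each recurrent CDR3 matched the TRAJ53 letters. Mice are counted by amino acids for the CDR3, which several nucleotide forms encode, and by nucleotides for the form.
CDR3 of 11 mice, this form in 8, with TRAV4-3: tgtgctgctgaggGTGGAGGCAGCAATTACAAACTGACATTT
CDR3 of 9 mice, this form in 7, with TRAV6-6: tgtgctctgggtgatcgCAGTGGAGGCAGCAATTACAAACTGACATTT
CDR3 of 8 mice, this form in 6, with TRAV9D-4: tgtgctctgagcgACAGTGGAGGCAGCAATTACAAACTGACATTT
CDR3 of 8 mice, this form in 4, with TRAV6-6: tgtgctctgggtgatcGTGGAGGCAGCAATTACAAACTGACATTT
CDR3 of 7 mice, this form in 3, with TRAV6-6: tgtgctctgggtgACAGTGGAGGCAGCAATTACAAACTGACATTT
The CDR3 of 11 mice was found in 20 of 24 tumors but never exceeded 0.638% of TRA counts, and it was encoded by 11 nucleotide sequences.

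The nucleotide sequence of the mouse 16 clone was found with TRAV9D-4 in 6 mice. Mouse 16 held 32386 and 23950 counts of it, mouse 14 held 4127 and 4522, mouse 3 held 67 and 604, while mouse 17 held 521 and 348. Mouse 6 had 31 and 17 counts, and mouse 12 had 2 in each tumor. Whether the low counts came from those tumors or from another library was not tested.

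TRAJ53 sequences occurred in 2 lengths after the CDR3. The usual form had 31 bases, and a form with 32 held 26.3% of unmarked TRAJ53 counts (57406 of 218591) and a median of 10.2% per tumor. Mouse 12 held most of these counts, with 83.9% and 85.5% of its TRAJ53 counts in the longer form, and without it the pooled share was 9.50%. The longer form was not particular to TRAJ53, since the same share was 39.6% for TRAJ44, 25.4% for TRAJ56 and 23.6% for TRAJ47, with a median of 4.75% over 43 segments. The extra base was the first after the CDR3 and was T in 502 of 509 sequences. With stop-marked sequences included, 777 had the longer form, and in 758 of them the CDR3 length was a multiple of 3. After such a CDR3 the extra base shifts the reading frame of the bases that follow, relative to the usual form. The form went with the rearrangement: of 522 pairs of V segment and CDR3 in a mouse with at least 20 counts, 400 had only the usual form, 96 only the longer form and 26 both. Of 39 such pairs found in 2 or more mice, all 39 had the same leading form in each of their mice. Pooled over mice, TRAV12-2 sequences had the longer form in 91.7% of counts, of which mouse 12 supplied 43722 of 48030. By mouse the TRAV12-2 share ran from 0% in 4 mice to 98.0% in mouse 7, and those 4 mice had at most 90 TRAV12-2 counts each. TRAV9D-4 sequences had it in 1.73% of counts, with 1.72% in mouse 16 and 1.76% without it. The cause of the extra base was not tested.

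In the TRB libraries TRAJ53 was rare, with 991 of 8008393 counts. It had at least 1 sequence in 21 of 24 tumors and in all 12 mice. TRAJ53 held 99.2% of all TRAJ counts in these libraries, since the other TRAJ segments had only 3 sequences with 8 counts. All 88 TRAJ53 sequences lacked a constant segment, which made them 62.4% of the 141 TRB-library sequences without one, and 87 had a TRAV segment while 1, in tumor 1 of mouse 6, had TRDV1 with TRDD2. None had a TRBV segment. A stop codon mark was on 18 of them. In the TRA libraries 3681 of 3724 TRAJ53 sequences had TRAC and 43 had no constant segment.

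TRAJ53 counts per 100000 TRB counts had a median of 5.44 over the tumors. Among the time-matched mice, mouse 6 had 9.29 and 11.9 (tumor 1, then tumor 2), mouse 12 had 13.0 and 18.0, while mouse 14 had 4.92 and 5.75. Among the untreated time-separated mice, mouse 4 had 13.0 and 3.84, mouse 17 had 4.55 and 2.18, while mouse 19 had 13.6 and 7.72. Time-matched and untreated time-separated tumors overlapped. Among the low-dose DAC mice, mouse 3 had 0 and 2.95, mouse 11 had 5.13 and 2.80, while mouse 20 had 2.81 and 0. Among the high-dose DAC mice, mouse 7 had 37.6 and 38.3, mouse 10 had 3.71 and 0, while mouse 16 had 27.5 and 26.0. Tumor 1 of mouse 3 had 3 TRAJ53 sequences of a single count, which the minimum of 2 counts left out. The other 2 tumors at 0 had none, which allows up to 2.81 per 100000 in tumor 2 of mouse 20 and 0.675 in tumor 2 of mouse 10, taking 3 counts of the library as the limit. These limits rest on a larger library total than the levels above.

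Per mouse the level was 10.5 ± 5.10 (SD, n = 3) in time-matched, 7.48 ± 3.73 in time-separated, 2.28 ± 1.46 in low-dose DAC and 22.2 ± 18.5 in high-dose DAC mice. Time-matched mice and all 9 time-separated mice differed by -0.172 per 100000, less than the SD of either group, which is a description because TRAJ53 was chosen by these counts. The sign turned when mouse 7 (3.24), mouse 14 (2.40) or mouse 16 (1.84) was left out.

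The level of TRAJ53 in the TRB library is set beside its share in the TRA library as a description with no test, because its TRB counts chose it. Over the 12 mice Pearson's r between the TRAJ53 share of all TRA counts and of TRB counts was 0.893 and Spearman's rho was 0.839. Without mice 7 and 16, which lay farthest from the median, r was 0.706 over 10 mice. Both libraries of a tumor came from the same RNA. Where TRAJ53 was listed, there were 1.04 to 9.39 TRB-library counts for every 1000 TRAJ53 counts of the TRA library, with a median of 3.61. Both the lowest and the highest of these values rest on few counts, 2 in tumor 2 of mouse 3 and 17 in tumor 2 of mouse 19.

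**Figure D4:**
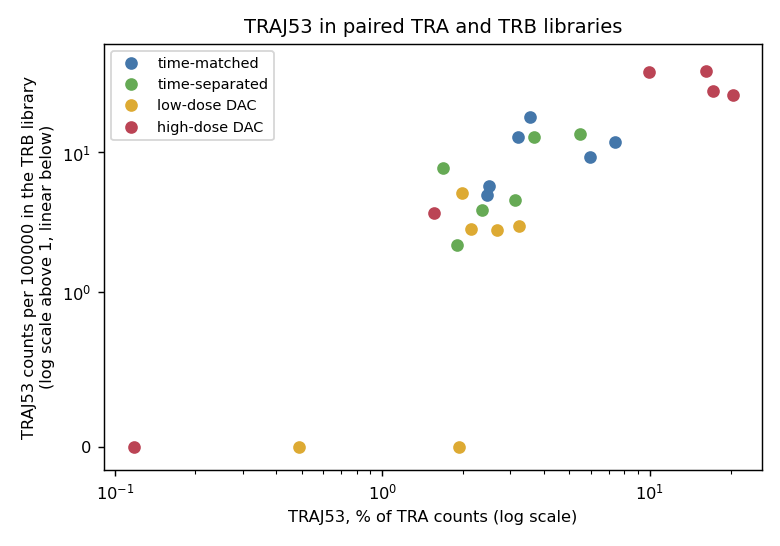
TRAJ53 counts per 100000 in the TRB library (y axis, logarithmic above 1 and linear below) against the TRAJ53 share of unmarked TRA counts (x axis, %, logarithmic), with a point per tumor colored by group. The 4 tumors of mice 7 and 16 lie at the upper right, and the 3 tumors at 0 lie at 0.117%, 0.487% and 1.93% on the x axis.

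The TRAJ53 sequences of a TRB library were those of the TRA library of the same tumor. Of 88 sequences, 85 had a CDR3 with the same nucleotides among the TRAJ53 sequences of that TRA library, and they held 99.3% of the counts. The other 3 had at most 3 counts each. By amino acids, 98.6% ± 4.81 (SD, n = 12 mice) of the unmarked TRB-library CDR3s were found in the TRA library of the same tumor, 70.3% ± 35.0 in that of the other tumor of the mouse and 15.9% ± 12.7 in those of other mice. The difference of 82.7 points between the same tumor and other mice was above 0 in 12 of 12 mice. It is a description with no test, because both libraries of a tumor came from the same RNA. In addition, 85.8% of the distinct TRAJ53 CDR3s of TRA libraries occurred in 1 mouse only. The one mouse below 100% for the same tumor was mouse 19, with 83.3%. These percentages rest on few sequences, 66 in all and 1 to 7 per tumor, with a single one in mice 3 and 20.

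**Figure D5:**
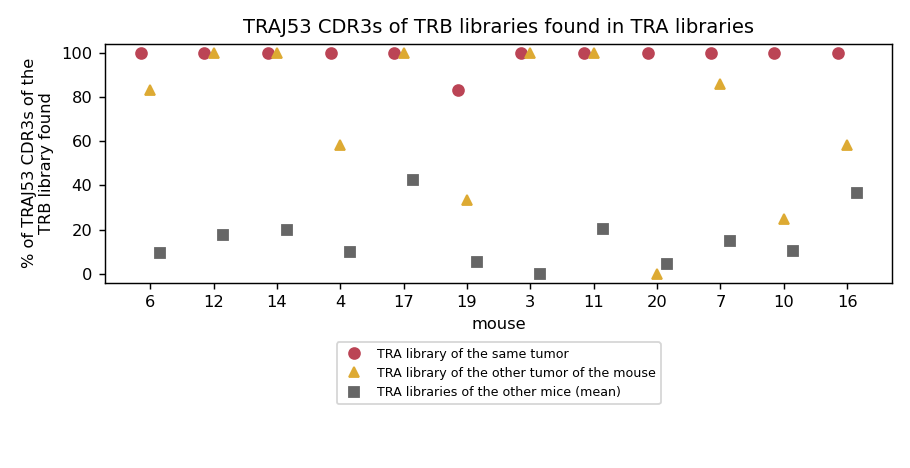
Share of the TRAJ53 CDR3 amino acid sequences of TRB libraries (y axis, %) found with TRAJ53 in the TRA library of the same tumor (circles), of the other tumor of the mouse (triangles) and of the other mice (squares, mean), for each mouse (x axis). The circles lie at 100% in 11 mice and at 83.3% in mouse 19, and the highest square is at 42.6% in mouse 17.

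The largest clones led in both libraries. In 17 of 21 tumors the largest unmarked TRAJ53 CDR3 of the TRB library was also the largest of the TRA library, and in 19 it was among the 3 largest. The CDR3 of the mouse 16 clone held 407 counts, or 41.1% of all TRAJ53 counts in TRB libraries, and was listed in 6 tumors of 4 mice, the most of any. Its nucleotide form shown above had 243 and 107 counts in mouse 16 and 22 and 30 counts in mouse 14, with 2 more in tumor 1 of mouse 17. The clone of mouse 12 followed with 153 counts, that of mouse 6 with 59, that of mouse 7 with 57 and a CDR3 of 2 mice with 37. No other CDR3 was listed in more than 3 tumors. One TRAV14-2 sequence stood apart. It had 15 counts in the TRB library and 27 in the TRA library of tumor 2 of mouse 19, and it was named after its values were seen.

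For the matched sequences the V segment was the same in both libraries in 65 of 85 cases. In the other 20 it was another member of the same V family, such as TRAV14-3 in the TRB and TRAV14-1 in the TRA library (6 cases) or TRAV3-4 and TRAV3-1 (6 cases). V names of near-identical copies are therefore uncertain here. The length after the CDR3 was the same in both libraries in 84 of 85 cases, 17 of them with the longer form.

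The listed sequences differed in their ends, as the pairs printed above show. The last base was C in 88 of 88 TRAJ53 sequences of the TRB libraries and A in 3717 of 3724 of the TRA libraries. The listed sequence had a median of 140 bases for TRAJ53 in TRB libraries, 110 for TRAJ53 in TRA libraries and 116 for TRBJ sequences in TRB libraries. The 9 bases GTGACTCCA, searched as listed on this strand in the last 14 bases, were found in 3605 of 3724 TRAJ53 sequences of the TRA libraries and in 86 of 88 of the TRB libraries. They were found in 2 of 84383 sequences with other TRAJ segments and in 0 of the TRBJ sequences of TRB libraries. What this ending has to do with the presence of TRAJ53 in TRB libraries was not tested.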

How the data were processed

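TCRα and TCRβ libraries were prepared from whole-tumor RNA with a SMART-Seq Mouse TCR kit with unique molecular identifiers, and the authors called clonotypes with the Cogent NGS Immune Profiler. In the deposited tables each sequence has a count that was not normalized. The authors call these counts reads. The authors report a step based on the identifiers in the Cogent software. Whether reads with the same identifier were merged in the deposited counts is not stated, so intervals cover counting error only. Aligner and genome build are not given in the sources used here.

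Sequences with at least 2 counts were kept, and in TRA libraries those with a stop codon mark were left out. Samples were grouped by their labels. Values of both tumors were averaged per mouse. Shares were compared with exact permutation tests of group means, two-sided, and tumors of a mouse with exact sign-flip tests. P-values were adjusted by Benjamini-Hochberg over the 43 TRAJ segments found in at least 12 tumors. An exact test of 3 against 9 mice cannot go below p = 0.00455, so a lone segment cannot pass after adjustment. Only this test of 3 against 9 mice was also run on simulated shares, and its outcome is not given here. Intervals are 95% Clopper-Pearson.

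The named items were the 3 TRAJ segments with the highest Spearman correlation with TRAJ53 (the 3 lowest were added after their values were seen), its neighbors, the 5 V segments with most clonotypes and most counts, the largest TRAJ53 clonotype of each mouse, the 5 CDR3s in most mice, and in TRB libraries the 5 CDR3s with most counts and in most tumors. TRAJ53 and these lists were chosen with earlier results of these data known. Alternatives were other count minimums, stop filters, clonotype definitions and thinning to 26623 counts (mean of 20 draws). Python 3.11.15, numpy 2.4.6, scipy 1.17.1 and pandas 2.3.3 were used.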

Additional observations from a re-analysis of the deposited data

Results flagged for a closer look

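The TRAJ53 share moved in opposite directions between the tumors in both untreated groups. It was higher in tumor 2 in 3 of 3 time-matched mice, by a mean of 0.605 percentage points, and lower in tumor 2 in 3 of 3 time-separated mice, with a mean of -2.10. The group means differed by 2.70 points. This comparison was picked because the directions were opposite, so the difference is a description. Among the other time-separated mice, tumor 2 was higher in 2 of 3 low-dose DAC mice (mean 0.120 ± 1.57, SD) and in 2 of 3 high-dose DAC mice (mean 2.67 ± 3.91). All 9 time-separated mice averaged 0.231 ± 3.04. The labels do not give which tumor was taken first.

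Segments of the other chain were found in both kinds of library. TRAJ segments other than TRAJ53 had 8 counts in TRB libraries at 2 or more counts a sequence, and with single counts included 38 sequences of 19 segments, of which TRAJ30 had the most (7) and 32 carried TRAC. TRBJ segments had 139 counts in 35 sequences of the TRA libraries, all with TRBC1.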

How the results depend on the processing

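The comparisons of the TRAJ53 share of TRA counts or clonotypes between groups could not pass for a lone segment after adjustment at any size of difference, so their p-values say nothing of stability. The difference between tumors did not pass under any alternative. The match of TRB-library CDR3s to the same tumor, given as a description, exceeded that to other mice by 79.2 to 90.6 points. Some differences changed sign. The difference between time-matched and time-separated mice was -0.0142 points without the largest TRAJ53 clonotype of each mouse, tumor 2 minus tumor 1 was -0.0312 points without the longer form (chosen after seeing the data), and the TRB-library difference was 2.95 per 100000 at a minimum of 10 counts. With each mouse left out in turn, the TRAJ53 share differed by -0.0979 to 2.01 points between time-matched and time-separated mice, the low value without mouse 6. It differed by -2.40 to 0.532 against all time-separated mice, the high value without mouse 16, and by -0.222 to 0.697 between tumors, the low value without mouse 7. The clonotype share differed by -0.487 to 0.662 and turned without mouse 7, 14 or 16, and the TRB-library level by -2.70 to 3.24. The TRAV16 to TRAV21 difference passed at 7.86, 7.50 and 6.39 points under the settings given with it, the last also chosen after seeing the data, and ran from 2.75 to 5.81 points without single mice. The number of TRAJ53 clonotypes fell to 848 without 1-base neighbors. No TRB-library TRAJ53 sequence had a constant segment, so a comparison of sequences with one gave no value, and that of sequences without one gave the same -0.172. Tumors were paired within mice above. No paired analysis was possible between groups because they hold different mice.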
